A study of Mus musculus with 9 samples.

Results

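Endothelial cells of the mouse brain were compared between animals that carried the compound genotype APP/PS1xRIPK1KD (3 libraries) and all animals whose Ripk1 was unaltered by label, that is WT (3 libraries) and APP/PS1 (3 libraries) taken as 1 group of 6. The 3 compound libraries were chosen by the genotype label from 9 in all, and every gene of the matrix was considered, with 13317 of 23420 genes passing the filter on low counts. All animals were labelled 6-month-old male C57BL/6 mice, and 20000 CD31+CD45- cells were sorted per sample for Smart-seq2, a full-length, poly(A)-primed method for small RNA inputs. By label WT animals carry neither alteration, APP/PS1 animals carry the amyloid-related transgenes named in the label, and the compound animals carry APP/PS1 together with RIPK1KD. The meaning of KD and the promoters of the transgenes are not given in the sources used here. A WT background carrying RIPK1KD alone was not analysed here, so a change seen in the compound group cannot be told apart as one of RIPK1KD alone or one that needs APP/PS1 as well.

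RIPK1 is a kinase recruited to the TNF receptor complex, where it acts as a scaffold for NF-kappaB signalling and, through its kinase activity, in apoptosis with caspase 8 and in necroptosis with RIPK3 and MLKL. APP/PS1 mice overproduce amyloid beta and are a model of amyloid deposition. Brain endothelial cells form the blood-brain barrier, with claudin 5 at their tight junctions and the glucose carrier Slc2a1 among their transporters, and they respond to cytokines, glucocorticoids and blood flow.

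The libraries held 16263762 to 52413164 counts, and the compound libraries 40204618 to 50892216. The endothelial identity in the label was checked against its defining genes: Cldn5 stood between 5595 and 8456 CPM (a gene's count scaled to its library's TMM-adjusted total) and Pecam1, which encodes CD31, between 975 and 1234 CPM in all 9 libraries, while Ptprc, which encodes CD45, did not exceed 0.918 CPM. The labels give every animal as male, but replicates 1 and 2 of each genotype held Xist at 264 to 533 CPM, and replicate 3 of each held 4 Y-linked genes summing to 150 to 185 CPM. The split is the same in each genotype. WT replicate 3 also stood apart in antigen presentation genes, with Cd74, the class II invariant chain, at 356 CPM against at most 16.7 CPM elsewhere. The share of counts at Rn45s, a ribosomal RNA precursor, was 23% ± 3.19 (SD, n = 3) in the compound libraries and 28.3% ± 6.55 (SD, n = 6) in the others (two-sided exact permutation p = 0.238, where the smallest p possible is 0.0238). Nothing in the labels says that replicates came from separate litters or days, so p-values measure the spread between these libraries.

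Ripk1 itself was still transcribed in the compound group. It stood at 31.4, 44.9 and 35.5 CPM in the 3 compound libraries, at 45, 48.1 and 34.9 CPM in WT and at 75.3, 52.9 and 40.9 CPM in APP/PS1. The compound values lay in the lower part of the range and overlapped both other genotypes, and the log2 difference of -0.41 (SE 0.217) did not pass edgeR's quasi-likelihood test (adjusted p = 1). Since the sources used here do not say what KD stands for, whether the Ripk1 count should differ under that label cannot be told. App read 1812, 2026 and 2069 CPM in the compound libraries and 1705 to 2221 CPM in the others, and these gene counts were not split into transgene and endogenous transcripts.

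By the adjusted test, 1 transcript fell in the compound genotype and none rose. The long intergenic RNA 2610035D17Rik (chromosome 11, 113043895 to 113201838, minus strand, GRCm38) had 0 counts in all 3 compound libraries. It was present in WT at 9.44, 11.8 and 2.61 CPM and in APP/PS1 at 10.7, 4.3 and 9.34 CPM, on 122 to 470 counts per library. The 6 libraries with unaltered Ripk1 thus all held it and none of the compound libraries did. Set against a floor of 3 counts per compound library, the transcript was at least 131-fold lower (adjusted p = 0.00306, edgeR quasi-likelihood with Benjamini-Hochberg adjustment), and it was the only gene of the matrix with 0 counts in every compound library and 3 or more in every other. It makes up the 0.00751% of tested genes called at an adjusted p under 0.05. With replicates 1 and 2 only the adjusted p was 0.0176, in a fit without the APP/PS1 libraries it was 0.0623, and limma-voom gave 0.629. An edgeR quasi-likelihood fit with 1 coefficient per genotype gave 0.00696 against WT and 0.0137 against APP/PS1. The called transcript starts in the window printed here, 250 bases before to 50 after its annotated start, from RefSeq on GRCm38.p6 (chr11:113201789-113202088, minus strand), with the 50 transcribed bases in capitals.
2610035D17Rik: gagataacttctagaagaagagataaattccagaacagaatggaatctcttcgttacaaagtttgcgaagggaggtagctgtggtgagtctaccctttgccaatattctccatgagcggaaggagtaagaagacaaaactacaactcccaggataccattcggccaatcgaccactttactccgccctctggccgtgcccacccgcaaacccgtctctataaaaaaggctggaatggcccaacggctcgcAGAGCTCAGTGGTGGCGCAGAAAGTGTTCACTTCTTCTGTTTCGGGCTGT

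The neighbouring tested gene at lower coordinates was Sox9, a transcription factor gene chosen after its values were seen, which ends 256 kb away with no other tested gene starting between. Sox9 stood at 0.387, 0.753 and 0.432 CPM in the compound libraries, at 2.24, 3 and 1.16 CPM in WT and at 5.98, 3.13 and 2.36 CPM in APP/PS1. The groups did not overlap, but the log2 difference of -2.50 (SE 0.68) had an adjusted p of 0.763 in edgeR. The adjusted p was 0.0233 in DESeq2. Slc39a11, a zinc transporter gene on the other side and also chosen after its values were seen, read 6.1, 5.77 and 1.91 CPM against 5.78 to 11.5 CPM and overlapped.

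**Figure D1:**
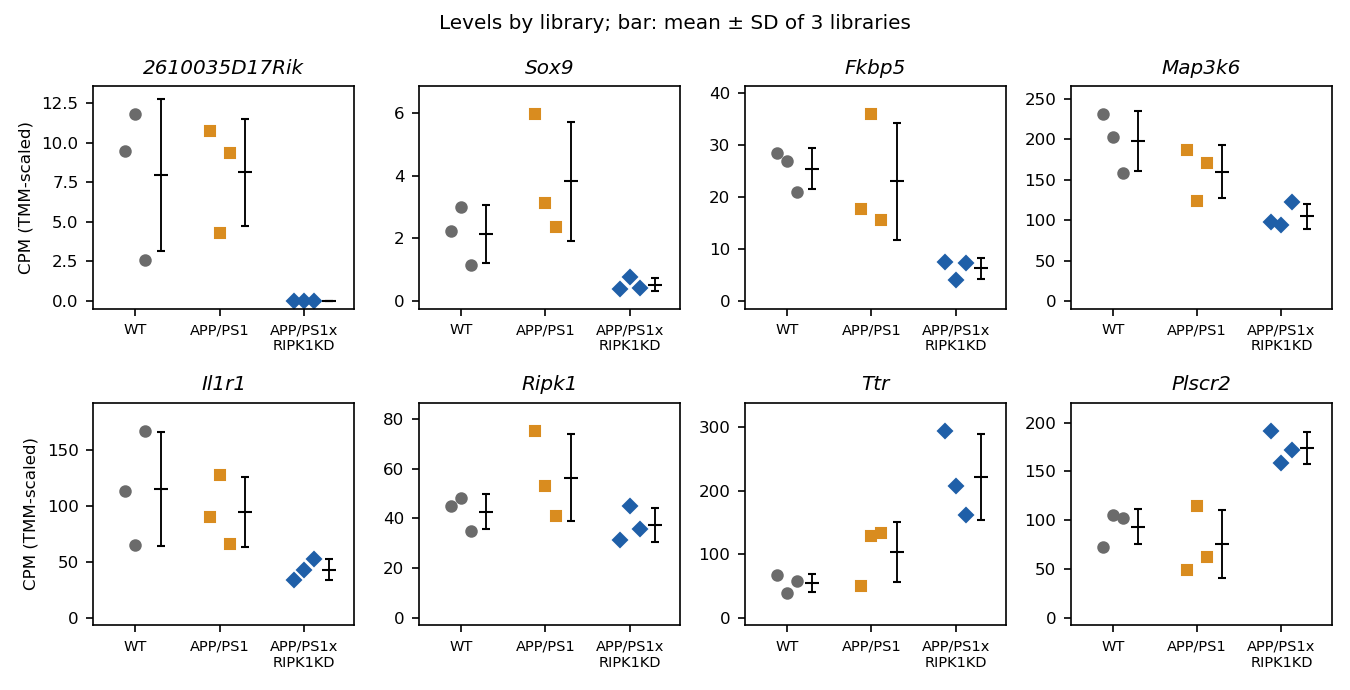
Levels in CPM (linear axis) of 8 genes in each library of WT, APP/PS1 and APP/PS1xRIPK1KD (3 each), with mean ± SD beside the points. 2610035D17Rik is at 0 in the 3 compound libraries, Sox9, Fkbp5, Map3k6 and Il1r1 lie below all other libraries, Ttr and Plscr2 above them, and Ripk1 overlaps.

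At an unadjusted p under 0.05 there were 665 of 13317 genes, or 4.99% of those tested, 282 higher (2.12%) and 383 lower (2.88%). This share is close to the threshold itself. The compound libraries lay wholly above the 6 others for 187 genes (1.4%) and wholly below them for 172 (1.29%). The median log2 difference over all genes was -0.0077, and 48.7% of genes were above 0. The values of the leading genes that follow describe the extremes of this distribution and, apart from 2610035D17Rik, none passed the adjusted test.

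The 12 genes leading on the higher side have the smallest p of those with a mean of 5 CPM or more and groups that do not overlap. Plscr2, a phospholipid scramblase family gene, stood at 192, 159 and 172 CPM in the compound libraries. It stood at 72.4, 105 and 102 CPM in WT and at 49.2, 115 and 61.9 CPM in APP/PS1, a log2 difference of 1.04 (SE 0.222, adjusted p = 0.688). Every compound library was above the highest other library, which was APP/PS1 replicate 2. Lysmd2, a LysM domain gene, stood at 104, 71 and 114 CPM against 47.2 to 64.9 CPM, a log2 difference of 0.78 (SE 0.162). Plk2, a polo-like kinase, stood at 311, 280 and 342 CPM against 198 to 248 CPM. The 3 compound libraries of Efr3b, which anchors a phosphatidylinositol kinase at the membrane, read 408, 400 and 379 CPM against 261 to 323 CPM. Vash1, an endothelial angiogenesis inhibitor with tubulin carboxypeptidase activity, read 23.3, 21.3 and 21.5 CPM against 9.67 to 15.8 CPM. The remaining members were Gstm7, a glutathione transferase, Senp7, a SUMO protease, Zfp937, Plekhh2, the pseudogene Tmem181b-ps, 8430408G22Rik and E030002O03Rik, with log2 differences from 0.45 to 0.89. For the 12 genes the log2 differences were 0.43 to 1.02 against WT and 0.41 to 1.20 against APP/PS1, in the fit with 1 coefficient per genotype. Their direction was fixed by the choice of genes that lie above every other library, and both sets of values share the compound libraries.

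On the lower side the second gene was Fkbp5, a chaperone of the glucocorticoid receptor whose transcription glucocorticoids induce. It stood at 7.4, 4.02 and 7.39 CPM in the compound libraries, at 28.5, 26.9 and 20.9 CPM in WT and at 17.6, 35.9 and 15.5 CPM in APP/PS1. The highest compound library, at 7.4 CPM, was below the lowest other library, at 15.5 CPM. The log2 difference was -1.95 (SE 0.315, adjusted p = 0.194), -2.02 against WT and -1.88 against APP/PS1. The adjusted p was 0.0327 when no filter on low counts was used, 0.707 with replicates 1 and 2 only and 1.07e-06 in DESeq2.

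Il1r1, the signalling receptor for interleukin 1, stood at 33.8, 42.1 and 52.7 CPM in the compound libraries against 64.9, 113 and 167 CPM in WT and 65.7, 90.1 and 127 CPM in APP/PS1, with a log2 difference of -1.29 (SE 0.29). Chka, choline kinase alpha, read 30.5, 44.6 and 43.4 CPM against 55.6 to 116 CPM. Map3k6, a stress-activated kinase, read 98, 93.9 and 122 CPM against 124 to 231 CPM. Aim2, the cytosolic DNA sensor, read 4.43, 3.88 and 4.36 CPM against 7.66 to 12.4 CPM, and the gap was wider against APP/PS1 (log2 -1.45) than against WT (-1.04). The difference between those 2 values was not tested. Rplp1, a ribosomal stalk protein, read 128, 158 and 129 CPM against 162 to 284 CPM. Slc35d2, Mal, Stard3nl, Sult1a1 and Osbpl10 completed the 12, with log2 differences from -0.52 to -1.30.

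**Figure D2:**
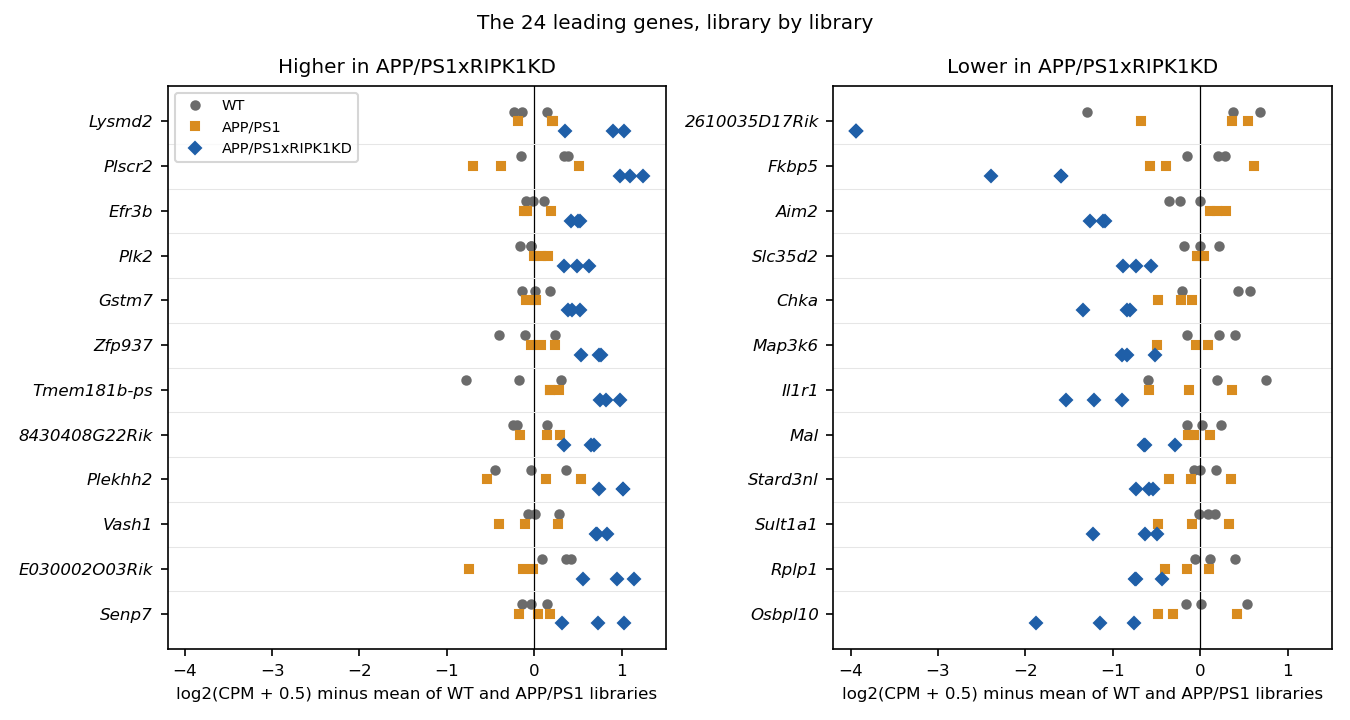
log2(CPM + 0.5) of each library minus the mean of the 6 WT and APP/PS1 libraries, for the 12 leading genes in each direction; circles are WT, squares APP/PS1 and diamonds APP/PS1xRIPK1KD. Diamonds lie on 1 side of all other points for each gene, as the selection rule requires, and 2610035D17Rik sits farthest from 0.

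Glucocorticoid target genes were read next because Fkbp5, Map3k6 and Sult1a1 all belong to the list of 21 tested genes. 16 of 21 were below 0. At an unadjusted p under 0.05, 6 were lower (2.88% of all genes) and 1 higher (2.12%), and 5 had compound libraries wholly below the others (1.29% of all genes). Leaving out each library in turn, the 6 became 5 to 12, with 12 without WT replicate 3 and 5 without compound replicate 1. It was 8 with replicates 1 and 2 only. The list median was -0.42 against -0.0077 for all genes. The 5 were Klf9, Lcn2 and the 3 leading genes Fkbp5, Map3k6 and Sult1a1, for which the list was opened. These 3 were already known to be lower, so they also count among the 6 and the 16 and enter the median by that choice. Klf9, a glucocorticoid-induced transcription factor, read 154, 155 and 151 CPM against 183 to 269 CPM. Tsc22d3, which encodes the glucocorticoid-induced leucine zipper protein, read 532, 607 and 776 CPM against 678 to 1406 CPM and overlapped at the edge. Lcn2, an iron-binding acute phase protein, read 1.59 to 3.1 CPM against 3.53 to 8.56 CPM in 5 libraries and 110 CPM in WT replicate 3. The receptor gene Nr3c1 read 172, 196 and 188 CPM against 150 to 216 CPM, and Arrdc3 was higher, at 32.2 to 52 CPM against 10 to 38.6 CPM. The median was -0.58 against WT and -0.38 against APP/PS1. With replicates 1 and 2 only, 16 of 21 were below 0 and the median was -0.56. Of 18 members with a promoter window, 4 (Lcn2, Map3k6, Mt1 and Sgk1) hold the receptor's core motif ACANNNTGT (both strands), against 6.85% of 32851 windows. Among the 4, Mt1 and Sgk1 overlapped, with log2 differences of -0.12 (SE 0.34) and -0.26 (SE 0.215). Fkbp5, Sult1a1, Klf9 and Tsc22d3 are not among the 4, and a link between motif and level was not tested.

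**Figure D3:**
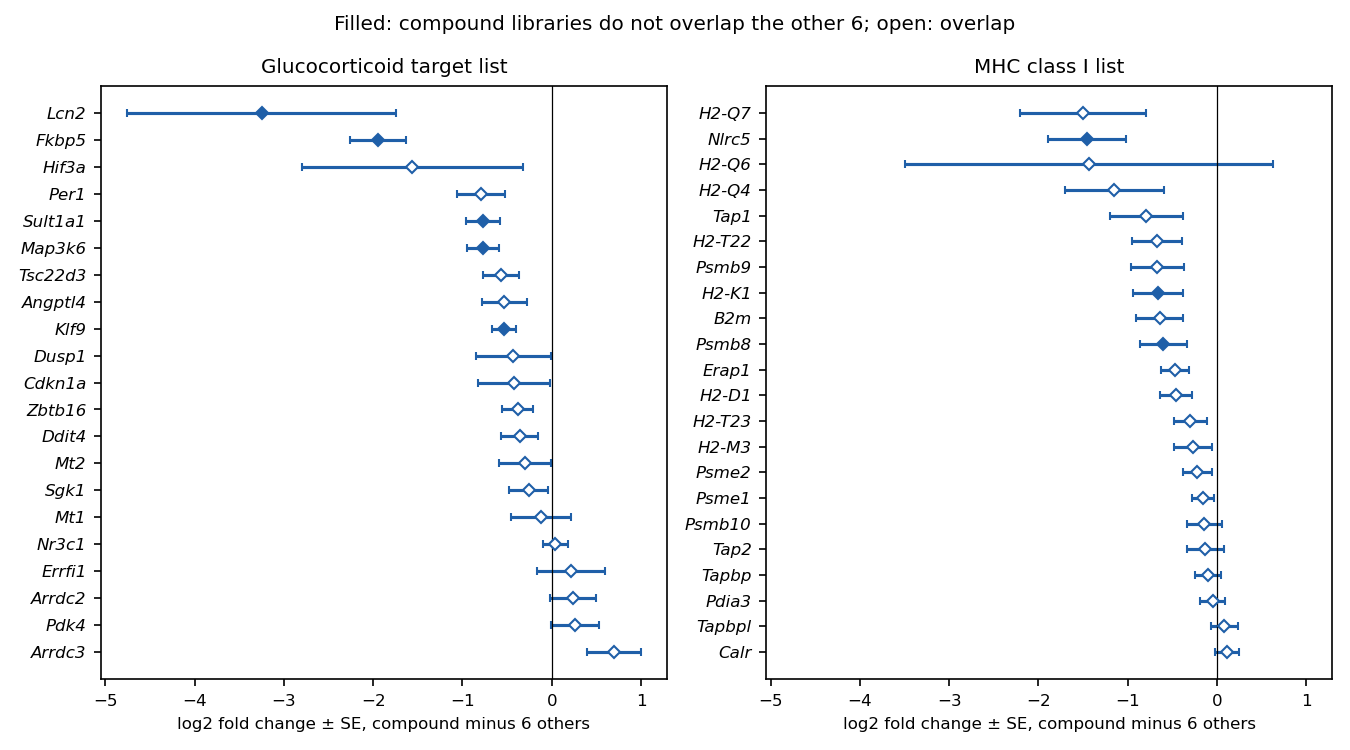
log2 fold change ± SE of each tested member of the glucocorticoid target list (21 genes) and the MHC class I list (22 genes), compound minus the 6 other libraries; filled diamonds mark genes whose libraries do not overlap. Fkbp5 has the narrowest SE among the members below -1, and Arrdc3 and Calr are the highest of their lists.

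Genes of MHC class I presentation, which load peptides onto H2 molecules, lay lower: 20 of 22 were below 0, with a median of -0.47, and 8 were lower at an unadjusted p under 0.05, against 2.88% of all genes. The median was -0.60 against WT and -0.28 against APP/PS1. APP/PS1 itself lay below WT, with a list median of -0.40, so the lower level is not particular to the compound genotype. The 8 became 5, 3 and 2 without compound replicates 1, 2 and 3, and 3 with replicates 1 and 2 only. B2m, the shared light chain, read 2343, 1886 and 1695 CPM in the compound libraries, 2282, 2676 and 5495 CPM in WT and 2797, 3053 and 2185 CPM in APP/PS1. Nlrc5, the transactivator of class I genes, read 21.4, 16.9 and 14.3 CPM against 25.2 to 109 CPM. H2-K1 read 1273, 1018 and 1006 CPM against 1298 to 3289 CPM, and H2-D1 2215, 1842 and 1906 CPM against 2173 to 4193 CPM. In each of these genes WT replicate 3 was the highest library. Without it 19 of 22 were below 0, with a median of -0.31, and with replicates 1 and 2 only 16 of 22, with a median of -0.15. The H2 genes are near-identical copies that share reads, so their separate levels are uncertain.

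The H2-K1 and H2-D1 promoters are shown because they hold the kappaB motif that NF-kappaB binds, GGGGATTCC, in capitals (RefSeq, GRCm38.p6). The motif, searched on both strands, is in 0.25% of 32851 windows and in 4 of the 19 class I list members with a window, the others being H2-Q6 and H2-Q7. All 4 are H2 genes, which are near-identical copies, so they are not independent of each other. A link between motif and level was not tested. The windows are chr17:34000298-34000597 (minus strand) for H2-K1 and chr17:35262844-35263143 (plus strand) for H2-D1, and the first motif base lies 111 and 171 bases before the start.
H2-K1: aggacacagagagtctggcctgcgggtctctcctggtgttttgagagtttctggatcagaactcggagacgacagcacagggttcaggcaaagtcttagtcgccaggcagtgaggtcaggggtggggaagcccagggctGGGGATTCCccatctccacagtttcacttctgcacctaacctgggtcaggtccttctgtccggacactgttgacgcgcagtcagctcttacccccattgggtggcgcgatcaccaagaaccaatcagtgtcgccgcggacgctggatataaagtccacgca
H2-D1: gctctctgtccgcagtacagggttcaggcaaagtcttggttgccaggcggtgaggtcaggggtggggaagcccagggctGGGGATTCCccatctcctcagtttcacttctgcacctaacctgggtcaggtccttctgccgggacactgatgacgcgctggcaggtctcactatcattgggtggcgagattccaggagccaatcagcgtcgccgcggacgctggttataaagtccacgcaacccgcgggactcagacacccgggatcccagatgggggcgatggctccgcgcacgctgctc

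Interferon-stimulated genes had 7 of 33 above 0 with a median of -0.23, but without WT replicate 3 they had 15 of 33 above 0 and a median of -0.024. With replicates 1 and 2 only, 18 of 33 were above 0 and the median was 0.042. Oas2, an interferon-induced enzyme, read 43.9, 28.6 and 24.4 CPM against 38.6 to 95.3 CPM, again with its highest value in WT replicate 3. The TNF and RIPK1 pathway list was divided, with 18 of 34 genes above 0 and a median of 0.024. Within it the death receptor Fas read 134, 104 and 153 CPM against 138 to 232 CPM (log2 -0.57, SE 0.179). Ikbkg, the regulatory subunit of the IkappaB kinase complex that RIPK1 engages, read 48.2, 48.1 and 40.9 CPM against 16.3 to 35.6 CPM (log2 0.61, SE 0.207). Traf5, a TNF receptor adaptor, read 12.8, 10.3 and 11.4 CPM against 11.3 to 19.4 CPM. The partners of RIPK1 in cell death differed by less: Casp8 by 0.15 (SE 0.127), Ripk3 by 0.13 (SE 0.382) and Mlkl by -0.11 (SE 0.249). Tnfaip3, the deubiquitinase that restrains NF-kappaB, read 25.3, 26.2 and 16.8 CPM against 7.27 to 32 CPM. Of the NF-kappaB list, 6 of 22 were above 0, with a median of -0.18, and Nfkbie, an inhibitor of NF-kappaB, read 0.816 to 2.23 CPM against 1.64 to 8.04 CPM.

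Venous and inflamed endothelium markers had 4 of 17 above 0 and a median of -0.68, with 3 lower at an unadjusted p under 0.05 (2.88% of all genes), Il1r1 and Ch25h among them. The 3 became 5, 6 and 5 without WT replicates 1, 2 and 3, and 2 without compound replicate 1. Ch25h, cholesterol 25-hydroxylase, read 7.79, 8.9 and 10.3 CPM against 7.85 to 61.4 CPM. Immediate early genes had 3 of 29 above 0 and a median of -0.41. Maff read 12.6, 9.67 and 14.1 CPM against 14.6 to 26.6 CPM, and Fos, whose libraries vary more, read 33.6 to 108 CPM against 28.4 to 255 CPM, with a log2 difference of 0.96 against WT and -1.55 against APP/PS1. Clock genes had 4 of 19 above 0 with Per1 and Hlf lowest in p, but Dbp, a clock output gene, ranged from 11.2 to 86.8 CPM in the compound libraries and from 14.5 to 220 CPM in the others. Collection times were not given in the sources used here. Ribosomal protein genes had 2 of 58 above 0 with a median of -0.13 and the median was -0.20 against WT and -0.067 against APP/PS1. For APP/PS1 against WT it was -0.15, so the lower level is not particular to the compound genotype.

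No barrier gene passed the adjusted test. Of tight and adherens junction genes, 13 of 17 were above 0 with a median of 0.05. Marveld2, tricellulin, had the smallest p of these and lay lower, at 14.5, 18.5 and 20.2 CPM against 13.5 to 48.3 CPM (log2 -0.88, SE 0.327). Cldn5 read 8274, 6951 and 7725 CPM against 5595 to 8456 CPM (log2 0.18, SE 0.135), Cdh5 differed by 0.095 (SE 0.0991) and Pecam1 by 0.077 (SE 0.1). The barrier transporter list had 15 of 29 above 0, and Slc2a1 read 6170, 5263 and 7742 CPM against 7430 to 8846 CPM (log2 -0.37, SE 0.119). Of the Wnt list, which keeps the barrier's gene programme in place, 13 of 20 were above 0, with a median of 0.057. Lef1 read 378, 403 and 360 CPM against 291 to 356 CPM and did not overlap. Tcf7 and Nkd1 had log2 differences of 0.44 and 0.41, and both overlapped. Tip cell genes had 14 of 20 above 0 and a median of 0.14. Among them Esm1, a secreted proteoglycan, read 89.1, 79.2 and 41.3 CPM against 17 to 53 CPM, and Plaur, the urokinase receptor, read 21.6, 35.8 and 38.9 CPM against 34 to 68.1 CPM (log2 -0.67, SE 0.246). Kdr, the main receptor for VEGF, read 578, 630 and 371 CPM against 304 to 495 CPM.

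Of the other lists, the basement membrane list had 16 of 22 above 0 and a median of 0.15, yet Fn1, fibronectin, read 931, 877 and 984 CPM against 1013 to 1310 CPM. In the TGF-beta and BMP list, with 9 of 23 above 0, the ligand Tgfb2 read 102, 107 and 97.6 CPM against 48.6 to 94.7 CPM and did not overlap, while the signal transducer Smad1 read 15.4, 16.7 and 16.6 CPM against 14.1 to 31 CPM. In the cholesterol synthesis list, with 16 of 23 above 0, Lss, lanosterol synthase, read 10, 16.7 and 7.58 CPM against 3.74 to 9.51 CPM. Of the amyloid list 6 of 23 were above 0, and Apoe, the main brain apolipoprotein, read 587, 648 and 858 CPM against 717 to 971 CPM. The oxidative phosphorylation list had 17 of 46 above 0 with a median of -0.022, and Cox5a, a cytochrome oxidase subunit, read 96.7, 94.7 and 89.5 CPM against 106 to 115 CPM. The co-chaperone Fkbp4 of the heat shock list read 283, 269 and 325 CPM against 180 to 261 CPM. None of these passed the adjusted test.

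**Figure D4:**
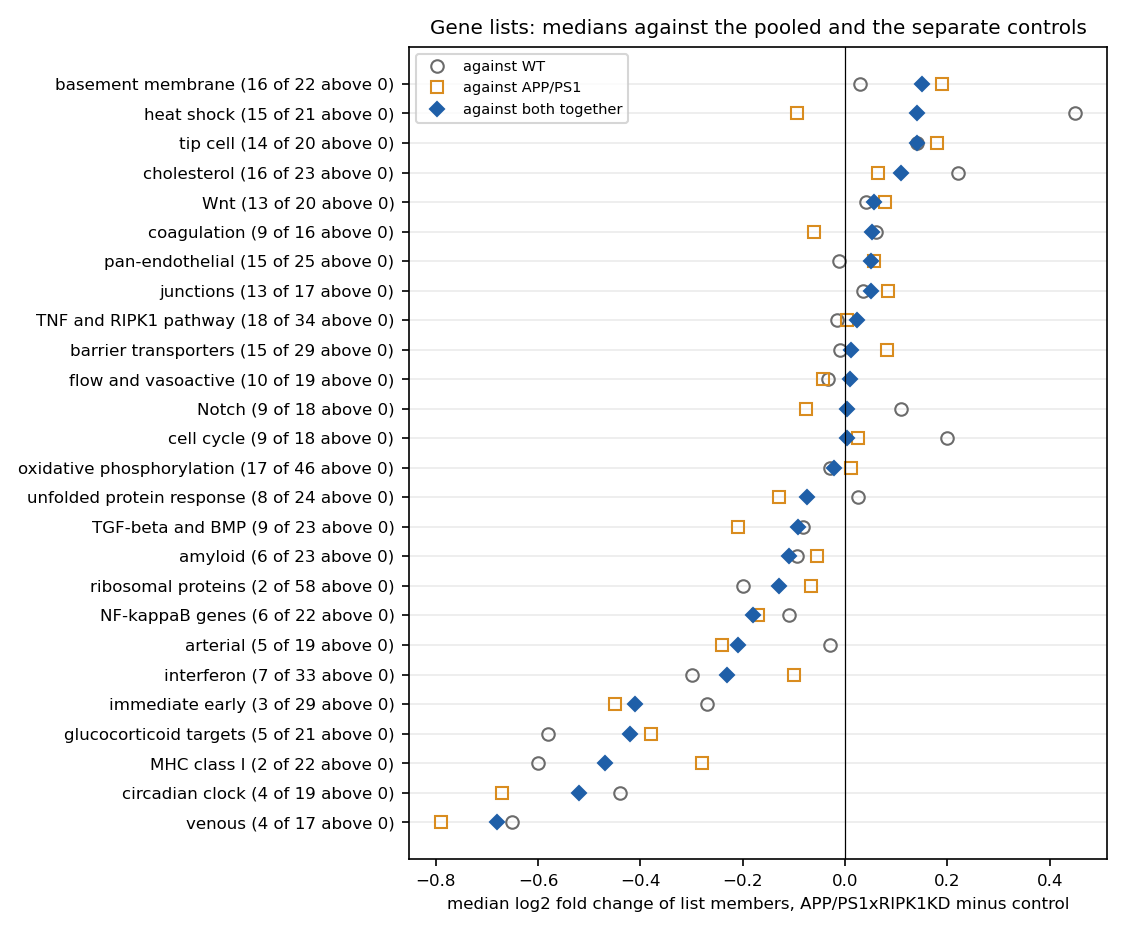
Median log2 fold change of the tested members of 26 gene lists, compound minus WT (circles), minus APP/PS1 (squares) and minus both (diamonds). Venous, clock, class I, glucocorticoid and immediate early lists lie farthest below 0 against both controls together (diamonds), and the 3 symbols of a list share the compound libraries.

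The pooled control group is not uniform. APP/PS1 differed from WT in 3 genes (0.0225% of those tested), all higher in APP/PS1, Vtn and Atp13a5 among them. Vtn read 25.5, 26.9 and 47 CPM in the compound libraries, 9.64, 3.24 and 7.47 CPM in WT and 48.1, 52.9 and 59.5 CPM in APP/PS1. Vtn is a pericyte gene in brain, and the mural cell list summed to 106 to 414 CPM in the compound libraries, 38.2 to 161 CPM in WT and 279 to 356 CPM in APP/PS1. For Vtn the compound libraries lay between the control genotypes. The heat shock list was also split by control: its median was 0.45 against WT and -0.094 against APP/PS1. Whether other cells in the sort moved with any result was not tested.

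Markers of other cells were as follows. Ttr, the choroid plexus thyroxine carrier, read 295, 208 and 162 CPM in the compound libraries, 66.5, 38.3 and 58.1 CPM in WT and 49.5, 128 and 134 CPM in APP/PS1, a log2 difference of 1.49 (SE 0.396, adjusted p = 0.803). The choroid plexus list of 12 summed to 188 to 324 CPM against 58.4 to 159 CPM, of which Ttr made up 162 to 295 CPM in the compound libraries. Of its 8 tested members 7 were above 0, and 1, Ttr itself, had compound libraries wholly above the others (1.4% of all genes). The list median was 2.13 against WT and 0.46 against APP/PS1. For APP/PS1 against WT it was 1.27, so a higher level than in WT is not particular to the compound genotype. The oligodendrocyte list summed to 426 to 533 CPM against 589 to 751 CPM, of which Mal made up 392 to 500 CPM in the compound libraries. Astrocyte markers summed to 140 to 156 CPM against 110 to 191 CPM, microglia markers to 77 to 102 CPM against 58.8 to 124 CPM, and leukocyte markers to 9.17 to 20 CPM against 12.9 to 614 CPM, where the top value was WT replicate 3. Fewer cells of a type and less RNA per cell cannot be told apart in these samples.

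Genes near Ripk1, the altered gene by label, were read as a group. Ripk1 lies on chromosome 13 at 34002363 to 34037147. Of 48 tested genes that start within 5 Mb of it, 23 were above 0 and 6 had an unadjusted p under 0.05, or 12.5%, against 4.99% over all genes. Of these 6, 3 were higher and 3 lower. The groups did not overlap for 1 of the 48, against 2.7% of all genes. The higher ones included Tubb2b, a beta tubulin, at 6.95, 7.57 and 9.08 CPM against 3.24 to 6.46 CPM. Nqo2, a quinone reductase, read 34.2, 41.2 and 44.3 CPM against 16.5 to 39.6 CPM. The lower ones included 4930447K03Rik, at 0 CPM in the compound libraries and 0 to 0.727 CPM in the others. None passed the adjusted test. Over all of chromosome 13 the share was 7.04% of 469 genes.

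A few transcripts were at or near 0 outside the compound libraries and were chosen for that after their values were seen. Slc9a9, a sodium-proton exchanger of endosomes, read 0.856, 0.388 and 0.757 CPM and at most 0.0264 CPM elsewhere (adjusted p = 0.688 in edgeR's quasi-likelihood test). Mlc1, a membrane protein of astrocyte end-feet, read 0.265 to 0.396 CPM and had 0 counts in all 6 others, which made it at least 3.57-fold higher than a floor of 3 counts per library. The exact test of edgeR called both Slc9a9 (adjusted p = 0.0046) and Mlc1 (adjusted p = 0.0267). Both passed the low-count filter only through the compound libraries. Ube2d2b read 0.162 to 0.489 CPM with 0 counts in all 6 others. Mlc1 and Ube2d2b are the genes of that pattern with 3 or more counts in every compound library, and their levels rest on 9 to 24 counts.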

How the data were processed

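Bulk RNA was measured in 9 libraries, 3 per genotype. Per the submitters' processing notes the tools were Bowtie 0.12.2, RSEM and edgeR 3.10.2, on mm10; the deposited values are RSEM expected counts, of which 28.3% were not whole; they were rounded to whole numbers here. The libraries, made with NexteraXT per the labels' protocols, do not mark strand or hold molecular identifiers, so overlapping and antisense genes cannot be separated. The deposited APP/PS1 against WT table was not used here.

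Counts were TMM-scaled and filtered (at least 10 counts in enough libraries, 15 in total; genes present only in the compound group pass through it). edgeR's quasi-likelihood test compared 3 libraries with 6, with Benjamini-Hochberg adjustment over 13317 genes at 0.05; a log2 fold change is compound minus others. edgeR 4.0.16, DESeq2 1.42.0 and limma 3.58.1 were used, DESeq2 and limma-voom as alternatives beside other scalings, filters and left-out libraries. Of 745 list genes, 732 matched by symbol and 11 by an older symbol. The genes named lead by p among non-overlapping genes of mean CPM at least 5 (12 per direction), with up to 3 of smallest p per list over 36 lists, 10 RIPK1, endothelial and amyloid genes, and 3 genes within 5 Mb of Ripk1. Klf9, Tsc22d3, Lcn2, Nr3c1, Arrdc3, B2m, H2-K1, Fos, Dbp, Ptprc, Cd74, Vtn and Atp13a5 fall outside this rule and were named after their values were seen. Some genes are not reported here. The procedure was tested on simulated data. Members and lists were chosen with earlier results of these data known. CPM are TMM-scaled here and not per length, so genes are compared only with themselves.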

Additional observations from a re-analysis of the deposited data

Results flagged for a closer look

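Among the 6 WT and APP/PS1 libraries, 7 of 83 genes named had 1 library far from the rest by Dixon's ratio (above 0.625). Chance gives such a gap in about 1 of 20 groups of 6 normally distributed values. That rate does not carry over here, since the 6 pool WT with APP/PS1 and many genes were named for their values in these libraries. Of the 7, 4 were in WT replicate 3. There H2-D1 read 4193 CPM with the next library at 2638 CPM, Nlrc5 109 CPM with the next at 46.6 CPM, and Oas2 95.3 CPM with the next at 46.9 CPM, while Casp8 was low at 51.7 CPM with the next library at 66.8 CPM. In APP/PS1 replicate 2 Ikbkg was low at 16.3 CPM, with the next at 29.6 CPM, and F3 was at 0.186 CPM, with the next at 0.0629 CPM. In WT replicate 1 Fn1 read 1310 CPM, with the next library at 1099 CPM.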

How the results depend on the processing

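The number of genes called (1) was the same with 3 genotype coefficients, RLE and upper-quartile scaling, Rn45s removed, a floor of mean CPM of at least 5, replicates 1 and 2 only, a term for replicate 3 and APP/PS1 alone as control. It was 33 by DESeq2 (4 higher and 29 lower) and 7 by edgeR's exact test. It was 0 by limma-voom (829 genes at an unadjusted p under 0.05), 2 with no filter and 3 with WT alone as control. Besides 2610035D17Rik, DESeq2 and the exact test both called Fkbp5, Il1r1, Lysmd2 and Plscr2. Leaving out each library in turn gave 1 to 4 calls: 2 without APP/PS1 replicate 2 (A730098P11Rik added) and 4 without compound replicate 2 (Gsta4, Gm17757 and Gm18853 added). 2610035D17Rik was called in 21 of 23 settings; limma-voom (adjusted p = 0.629) and WT alone (0.0623) did not call it. The non-overlap count of 359 was 280 with the CPM floor, 360 by RLE and 358 without Rn45s. The Rn45s difference of -5.3 percentage points was -7.79 to -3.91 over these, -7.79 without APP/PS1 replicate 2 (exact permutation p = 0.0357). With genotype means removed, same-numbered replicates correlated at -0.019 to 0.098 and other pairs at -0.10 to 0.082. These values cannot decide whether numbers pair samples by day or litter, and Xist and Y-linked genes did follow the numbers. The replicate block kept the 1 call, and 3 of 9 libraries correlated best with their own number.

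Near 0, signs turned for Ripk3 (-0.23 to 0.40 leaving out each library, -0.027 with replicates 1 and 2 only), Mlkl (-0.42 to 0.047 leaving out each library, with 0.023 without compound replicate 2, 0.078 with replicates 1 and 2, 0.079 with WT alone) and Tnfaip3 (-0.047 with APP/PS1 alone). For App the values were -0.021 to 0.074 leaving out each library and -0.085 with WT alone. The cause was not tested. Genes under a few CPM rest on few counts, and 3 libraries limit what can be called.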

Other observations

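The compound libraries were unlike each other for a few genes, chosen after their values were seen. Gsta4, a glutathione transferase that clears lipid peroxidation products, read 18.9, 81.9 and 15.9 CPM in compound replicates 1, 2 and 3 against 123 to 171 CPM in the 6 others. Gm17757 read 0.163, 30.2 and 0.054 CPM against 15.6 to 67.8 CPM. The pseudogene-type model Gm18853 read 21.9, 0 and 16.5 CPM, and at most 0.0214 CPM elsewhere. These 3 genes are those added to the calls when compound replicate 2 was left out. Eif3j1, a translation initiation factor subunit, read 9.79, 16.3 and 14.9 CPM in the compound libraries and 17.2 and 17.7 CPM in APP/PS1 replicates 1 and 2, but at most 0.0214 CPM in WT and 0 in APP/PS1 replicate 3.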
